A study of Mus musculus with 15 samples.

Results

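The cytochrome P450 genes Cyp2b9, Cyp2b10 and Cyp2b13 were followed in RNA from whole livers of male mice of the inbred strain C57BL/6J. They were chosen by symbol, as family members known to respond to CAR activators or to diet, with earlier results of these data known. They are 3 of 57132 gene identifiers in the table and of 7 rows with a Cyp2b symbol. Their identifiers in the table are ENSMUSG00000040660.7 for Cyp2b9, ENSMUSG00000030483.15 for Cyp2b10 and ENSMUSG00000040583.9 for Cyp2b13. The other 4 rows, Cyp2b19, Cyp2b23, Cyp2b26-ps and Cyp2b27-ps, held at most 3 counts in any library and did not pass the filter on low counts, whereas all 3 chosen genes passed. SR9009 mice were kept for 18 weeks on CDA-HFD, a high-fat diet that lacks choline and holds adapted amino acids and is used to cause steatohepatitis and liver fibrosis, and were injected intraperitoneally with SR9009 at 100 mg/kg each day during the last 6 of those weeks. SR9009 is a synthetic agonist of the REV-ERB nuclear receptors, repressors of the circadian clock. Vehicle mice ate the same diet and received the carrier, 15% Kolliphor in saline, on the same schedule. Chow mice ate standard chow. The mice were 8 weeks old at the start, and all 3 groups share strain and sex and carry no labelled genetic change. Whether Chow mice were injected is not stated, so diet and injections cannot be told apart in comparisons with Chow, and no time of day is given for collection. The libraries numbered 5 for SR9009, 5 for Vehicle and 4 for Chow. The first comparison asked what SR9009 did to a liver on the diet, the second what the diet with vehicle injections did relative to chow, and the third how SR9009 livers stood relative to chow.

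CYP2B enzymes are haem proteins of the endoplasmic reticulum that oxidise drugs, steroids and fatty acids with electrons passed on by the reductase Por. In mouse liver, Cyp2b10 is the textbook target of the constitutive androstane receptor (CAR, product of Nr1i3), which pairs with the retinoid X receptor Rxra and is activated by phenobarbital-like compounds. Cyp2b9 and Cyp2b13 are known as female-predominant liver genes that are kept low in adult males by pulsatile growth hormone acting through Stat5b.

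The 250 bases before each start site are shown because the 3 genes lie in the same cluster on chromosome 7, respond differently in these livers, and in Cyp2b9 and Cyp2b13 carry nearly the same proximal promoter. The sequences are from RefSeq, GRCm38.p6, plus strand, at chr7:26173159-26173408 for Cyp2b9, chr7:25897408-25897657 for Cyp2b10 and chr7:26061245-26061494 for Cyp2b13. The reads were aligned to GRCm39, so these positions are not those of the counted features. Capitals mark matches to 3 motifs, namely the nuclear receptor hexamer AGGTCA, the C/EBP core TTGCNNAA and, in the last sequence, the TATA-like ATAAAA.
Cyp2b9: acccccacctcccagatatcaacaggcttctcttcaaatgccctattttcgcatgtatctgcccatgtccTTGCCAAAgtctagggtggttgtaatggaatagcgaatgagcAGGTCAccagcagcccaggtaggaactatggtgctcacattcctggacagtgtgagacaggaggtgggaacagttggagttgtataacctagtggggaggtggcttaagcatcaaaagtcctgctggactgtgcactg
Cyp2b13: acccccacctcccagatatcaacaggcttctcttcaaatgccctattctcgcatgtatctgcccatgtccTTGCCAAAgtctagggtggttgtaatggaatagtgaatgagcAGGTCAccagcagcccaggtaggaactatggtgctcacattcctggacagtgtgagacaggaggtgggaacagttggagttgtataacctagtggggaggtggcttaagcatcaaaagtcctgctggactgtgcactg
Cyp2b10: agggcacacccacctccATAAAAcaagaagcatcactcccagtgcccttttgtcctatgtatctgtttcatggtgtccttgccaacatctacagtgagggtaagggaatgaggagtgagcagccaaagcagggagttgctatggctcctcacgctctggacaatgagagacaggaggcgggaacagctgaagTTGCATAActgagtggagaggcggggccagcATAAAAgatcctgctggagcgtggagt
The Cyp2b9 and Cyp2b13 windows are identical at 248 of 250 positions (99.2%), differing by T48C and C104T, with the Cyp2b9 base given first and positions counted from 1 at the 5′ end of the window. Each of these windows is 68.8% identical to that of Cyp2b10 over an alignment with 20 gap positions. AGGTCA lies from −138 to −133 relative to the start in Cyp2b9 and Cyp2b13, and TTGCNNAA from −180 to −173 in the same pair. In Cyp2b10, TTGCNNAA lies from −58 to −51, and ATAAAA from −233 to −228 and from −27 to −22. Both strands were searched, within these 250 bases only. Sequence farther upstream was not searched, so the lack of a motif here does not show that a gene lacks it. Among 32851 promoter windows of this length, 14% held AGGTCA, 9.56% TTGCNNAA, 17% ATAAAA and 7.02% TTCNNNGAA, the STAT5 element, which had no match in any of the 3 windows. A match is a description of letters and not a binding site, and the motifs were picked after the sequences had been seen. The transcripts of Cyp2b9 and Cyp2b13 are 89.1% identical, whereas Cyp2b10 is 84.4% identical to Cyp2b9 and 83.7% to Cyp2b13. No stretch of 100 bases in the Cyp2b10 transcript occurs in any other gene, against 1.18% of such stretches in Cyp2b9 and 9.29% in Cyp2b13, so reads of Cyp2b13 are the least certain of the 3. Of stretches of 50 bases, 9.69% in Cyp2b10, 11.2% in Cyp2b9 and 27.3% in Cyp2b13 occur in another gene. For Cyp2b10, 7.82% of them occur in Cyp2b13. The read length is not known. Whether Cyp2b10 reads entered the Cyp2b13 counts of SR9009, and so its ratio to Cyp2b9, was not tested.

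Total counts ranged from 29950509 to 45542335 per library, at which a floor of 3 counts is 0.0659 to 0.10 CPM, the count divided by the library total and rescaled, here on raw totals. All other CPM values use totals after TMM scaling. Xist had 0 to 19 counts and the Y-linked Ddx3y 1905 to 3120 counts over the 14 libraries. Against Chow, the diet-fed livers carried lower summed hepatocyte markers (76130 to 95370 CPM in SR9009, 89460 to 95770 in Vehicle and 121200 to 165900 in Chow, over 11 markers). They carried higher summed macrophage markers (1806 to 2229, 1874 to 2819 and 202.0 to 629.2 CPM over 10 markers, in the same order of groups), and likewise higher stellate and cholangiocyte markers. No marker was at 0 throughout a group. In bulk liver, fewer cells of a type and less RNA per cell cannot be told apart. SR9009 and Vehicle overlapped in each of these sums, and the part of cell makeup in the results against Chow was not tested. The libraries also fell into classes by how many of 1752 sensory receptor genes (olfactory, vomeronasal, trace amine) had a count. SR9009 replicates 2, 4 and 5 and Vehicle replicates 1, 2 and 3 had 150 to 231, and all others 45 to 105; results with SR9009 and Vehicle were recomputed within each class. Vehicle replicate 2 stood apart in several genes below, with the lowest pericentral hepatocyte marker sum, 5027 CPM against at least 9804 in the other Vehicle libraries.

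Cyp2b10 was the gene with the largest fitted rise under SR9009 of all 18181 genes tested, while it was lower in Vehicle than in Chow. In SR9009 replicates 1 to 5 it had 303.5, 486.9, 455.6, 543.6 and 395.8 CPM. In Vehicle replicates 1 to 5 it had 0, 1.20, 0.104, 0.223 and 0.406 CPM, which were 0, 51, 5, 11 and 19 counts. In Chow replicates 1 to 4 it had 3.51, 5.35, 0.761 and 3.79 CPM. Every SR9009 library lay far above every Vehicle and Chow library, and Vehicle lay below Chow apart from 1 crossing, Vehicle replicate 2 above Chow replicate 3. Means were 437 ± 91.8 CPM in SR9009, 0.386 ± 0.479 in Vehicle and 3.35 ± 1.91 in Chow (SD, n = 5, 5 and 4). The log2 fold change of SR9009 over Vehicle was 10.17 ± 0.69 (SE), a fold of 1152 with a 95% interval of 407 to 3257 (adjusted p = 1.12e-05). Because Vehicle held few counts, the size of that fold rests on very low values. Within the receptor-gene classes it was 10.23 (adjusted p = 0.0286) in the libraries with few and 10.13 (adjusted p = 0.00385) in those with many. Without Vehicle replicate 2, which held most of the Vehicle counts, it was 11.18. Relative to Chow, the Vehicle level fell by 3.15 ± 0.67 on the log2 scale, to 0.113 of the Chow level (95% interval 0.0413 to 0.307, adjusted p = 0.00135). Without Vehicle replicate 2 that change was −4.16. SR9009 livers were nevertheless above Chow by 7.02 ± 0.65 on the log2 scale (fold 129.7, interval 49.2 to 342, adjusted p = 1.30e-06).

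**Figure D1:**
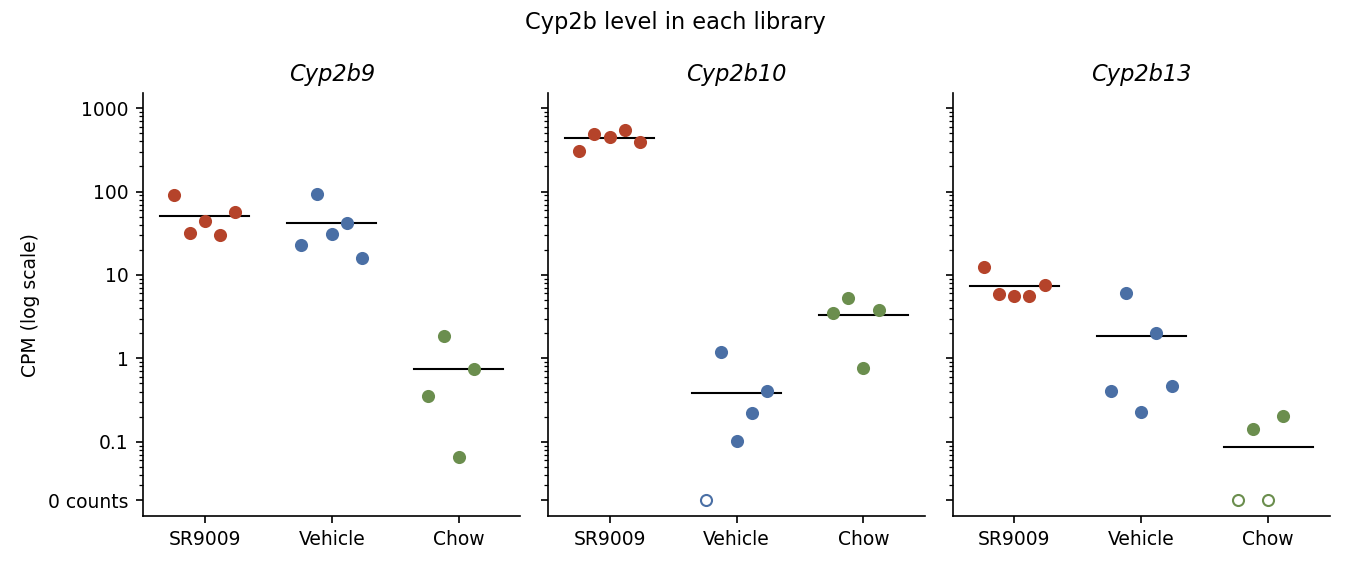
CPM of Cyp2b10, Cyp2b9 and Cyp2b13 in every library on a log axis, for SR9009, Vehicle and Chow from left to right, with filled points for libraries, open points for 0 counts and black lines for group means. Cyp2b10 is at 303.5 to 543.6 CPM in SR9009 against 0 to 1.20 in Vehicle, whereas Cyp2b9 overlaps between SR9009 and Vehicle and is near the floor in Chow.

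Cyp2b9 behaved differently: it was high in both diet-fed groups and nearly silent on chow. SR9009 replicates 1 to 5 had 89.9, 31.6, 44.9, 30.2 and 57.1 CPM. Vehicle replicates 1 to 5 had 23.2, 94.8, 31.4, 42.3 and 16.0 CPM. Chow replicates 1 to 4 had 0.351, 1.83, 0.0662 and 0.742 CPM, the third of these being 2 counts. SR9009 and Vehicle overlapped almost completely, the highest library of all being Vehicle replicate 2, and no diet-fed library came near the Chow range. Means were 50.7 ± 24.5 CPM in SR9009, 41.5 ± 31.3 in Vehicle and 0.748 ± 0.774 in Chow (SD, n = 5, 5 and 4). SR9009 differed from Vehicle by 0.29 ± 0.52 on the log2 scale (fold 1.22, interval 0.561 to 2.67, adjusted p = 0.970). That difference was −0.02 without SR9009 replicate 1, 0.85 without Vehicle replicate 2, 1.21 among libraries with few receptor genes and −0.33 among those with many. Vehicle exceeded Chow by 5.73 ± 0.79 (fold 53.0, interval 16.1 to 174, adjusted p = 5.50e-05). SR9009 exceeded Chow by 6.02 ± 0.79 (fold 64.8, interval 19.5 to 215, adjusted p = 3.7e-05). Without Chow replicate 2, the highest of the Chow libraries, these were 6.82 for Vehicle and 7.11 for SR9009.

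Cyp2b13 was higher in both diet-fed groups than in Chow, with its highest mean in SR9009. SR9009 replicates 1 to 5 had 12.4, 5.90, 5.54, 5.65 and 7.58 CPM. Vehicle replicates 1 to 5 had 0.411, 6.05, 0.228, 2.00 and 0.470 CPM. Chow replicates 1 to 4 had 0, 0.143, 0 and 0.206 CPM, or 0, 5, 0 and 5 counts. SR9009 lay above Vehicle except that Vehicle replicate 2 fell within the SR9009 range, and Chow lay below every other library. Means were 7.42 ± 2.92 CPM in SR9009, 1.83 ± 2.46 in Vehicle and 0.0873 ± 0.104 in Chow (SD, n = 5, 5 and 4). The difference of SR9009 from Vehicle, 2.03 ± 0.73 on the log2 scale (fold 4.07, interval 1.37 to 12.1), had an unadjusted p of 0.0152 and did not pass adjustment over all genes (edgeR adjusted p = 0.463). It depended on Vehicle replicate 2: without that library it was 3.24 (adjusted p = 0.0388). Within the receptor-gene classes it was 2.85 (few, adjusted p = 1.0) and 1.53 (many, adjusted p = 0.785). Vehicle exceeded Chow by 4.37 ± 1.21 (fold 20.7, interval 3.38 to 127, adjusted p = 0.00748). That value was 3.16 without Vehicle replicate 2 and 5.04 without Chow replicate 4, and among libraries with few receptor genes it was 3.83 and missed the threshold (adjusted p = 0.0845). SR9009 exceeded Chow by 6.40 ± 1.18 (fold 84.3, interval 14.5 to 492, adjusted p = 0.000409), or 7.06 without Chow replicate 4.

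Of the 3 genes, 1 was called in SR9009 versus Vehicle, upwards, against a background of 0.242% of tested genes in either direction (0.165% up and 0.077% down). In Vehicle versus Chow all 3 were called, with Cyp2b9 and Cyp2b13 higher and Cyp2b10 lower, against a background of 55.2% of tested genes (29.8% up and 25.4% down). In SR9009 versus Chow all 3 were called higher, against a background of 56.2% (30.5% up and 25.7% down). A call against Chow was thus common among all genes. By log2 fold change, the rises of SR9009 over Vehicle ranked 1 for Cyp2b10, 26 for Cyp2b13 and 1771 for Cyp2b9 among the 18181 genes. In Vehicle over Chow, the rises of Cyp2b9 and Cyp2b13 ranked 116 and 271, and the fall of Cyp2b10 ranked 106 among falls. In SR9009 over Chow, the rises ranked 88 for Cyp2b9, 40 for Cyp2b10 and 63 for Cyp2b13. These comparisons share groups, so they are not independent of each other. Because the 3 genes were chosen with earlier results of these data known, their calls and ranks are descriptions.

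**Figure D2:**
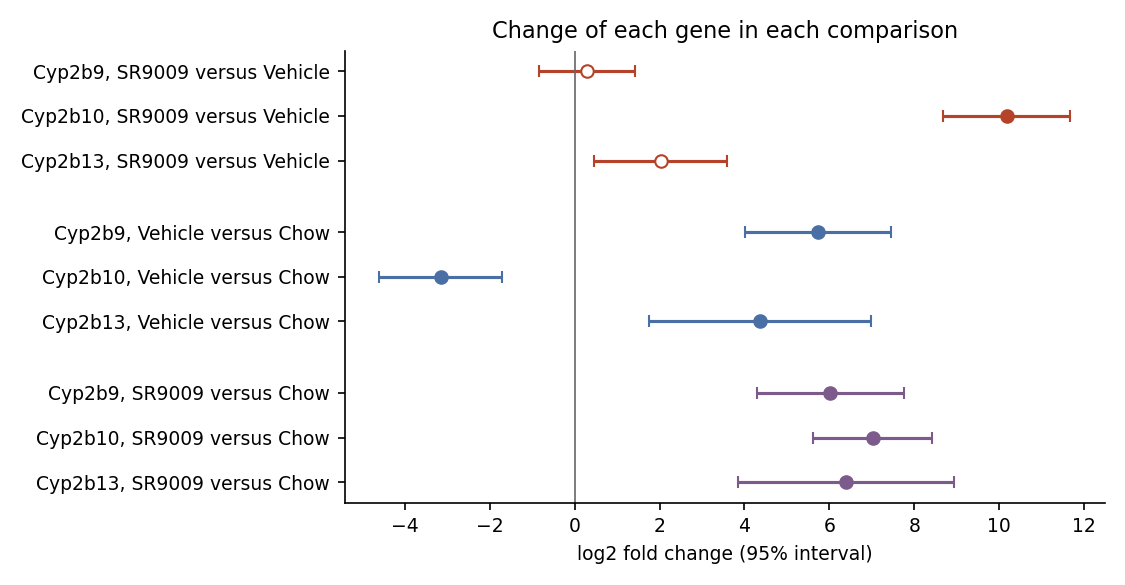
Log2 fold changes of the 3 genes with 95% intervals in SR9009 versus Vehicle, Vehicle versus Chow and SR9009 versus Chow, with a line at no change and filled points where the adjusted p is under 0.05. In SR9009 versus Vehicle the interval of Cyp2b9 crosses the line, while Cyp2b10 is at 10.17; in Vehicle versus Chow Cyp2b10 is at −3.15 and the others are above the line.

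Which gene dominated the family changed with the group. To compare genes, CPM was divided by exon length (1.876 kb for Cyp2b9, 2.112 kb for Cyp2b10 and 1.875 kb for Cyp2b13). On this scale the 3 genes summed to 198.3 to 276.5 CPM per kb in SR9009, 8.95 to 54.3 in Vehicle and 0.396 to 3.59 in Chow. Cyp2b10 made up 72.5% to 93.1% of the sum in SR9009, 0% to 2.15% in Vehicle and 70.7% to 91.1% in Chow. Cyp2b9 made up 5.82% to 24.2% in SR9009, 93.0% to 99.0% in Vehicle and 8.92% to 27.2% in Chow. Thus the shares in SR9009 resembled those in Chow, with Cyp2b10 leading, at a far higher summed level, whereas Vehicle livers had almost only Cyp2b9. The levels did not return to those of Chow, since Cyp2b9 and Cyp2b10 were each far higher in SR9009 (fold 64.8 and 129.7). The Chow shares rest on few counts, 2 to 64 of Cyp2b9 and 23 to 187 of Cyp2b10 per library. Cyp2b13 was at most 3.34% in SR9009, 5.94% in Vehicle and 4.78% in Chow.

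Ratios between the genes were tested per library on log2 CPM with exact two-sided permutation tests, adjusted over 9 comparisons. The log2 ratio of Cyp2b10 to Cyp2b9 averaged 3.20 ± 0.97 in SR9009, −7.04 ± 1.42 in Vehicle and 2.44 ± 0.71 in Chow (SD, n = 5, 5 and 4). SR9009 exceeded Vehicle by 10.24 (exact p = 0.00794, adjusted 0.0238) and Vehicle minus Chow was −9.48 (exact p = 0.0159, adjusted 0.0238), with no overlap between libraries. These are the smallest p-values the group sizes allow. SR9009 and Chow overlapped, with a difference of 0.76 (exact permutation p = 0.238, adjusted 0.268). The ratio of Cyp2b13 to Cyp2b9, the pair with nearly the same promoter, averaged −2.72 ± 0.29 in SR9009, −5.15 ± 1.13 in Vehicle and −2.29 ± 1.02 in Chow. It was higher in every SR9009 library than in any Vehicle library, by 2.43 on average (exact permutation p = 0.00794, adjusted 0.0238). In Vehicle relative to Chow the difference was −2.86 (exact permutation p = 0.0159, adjusted 0.0238), but Chow rests on 10 counts of Cyp2b13 in all, and with a smaller prior count the comparison missed the threshold. Per kb, Cyp2b9 exceeded Cyp2b13 by 5.34 to 8.11 times in SR9009 and by 15.7 to 138 times in Vehicle. In SR9009 the pair thus kept a narrow ratio from library to library, and in Vehicle a wide one. The ratio of Cyp2b10 to Cyp2b13 averaged 5.92 ± 0.80 in SR9009, −1.89 ± 1.32 in Vehicle and 4.73 ± 1.04 in Chow. SR9009 minus Vehicle was 7.81 (exact permutation p = 0.00794, adjusted 0.0238), Vehicle minus Chow −6.62 (exact p = 0.0159, adjusted 0.0238) and SR9009 minus Chow 1.19 (exact p = 0.111, adjusted 0.143).

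**Figure D3:**
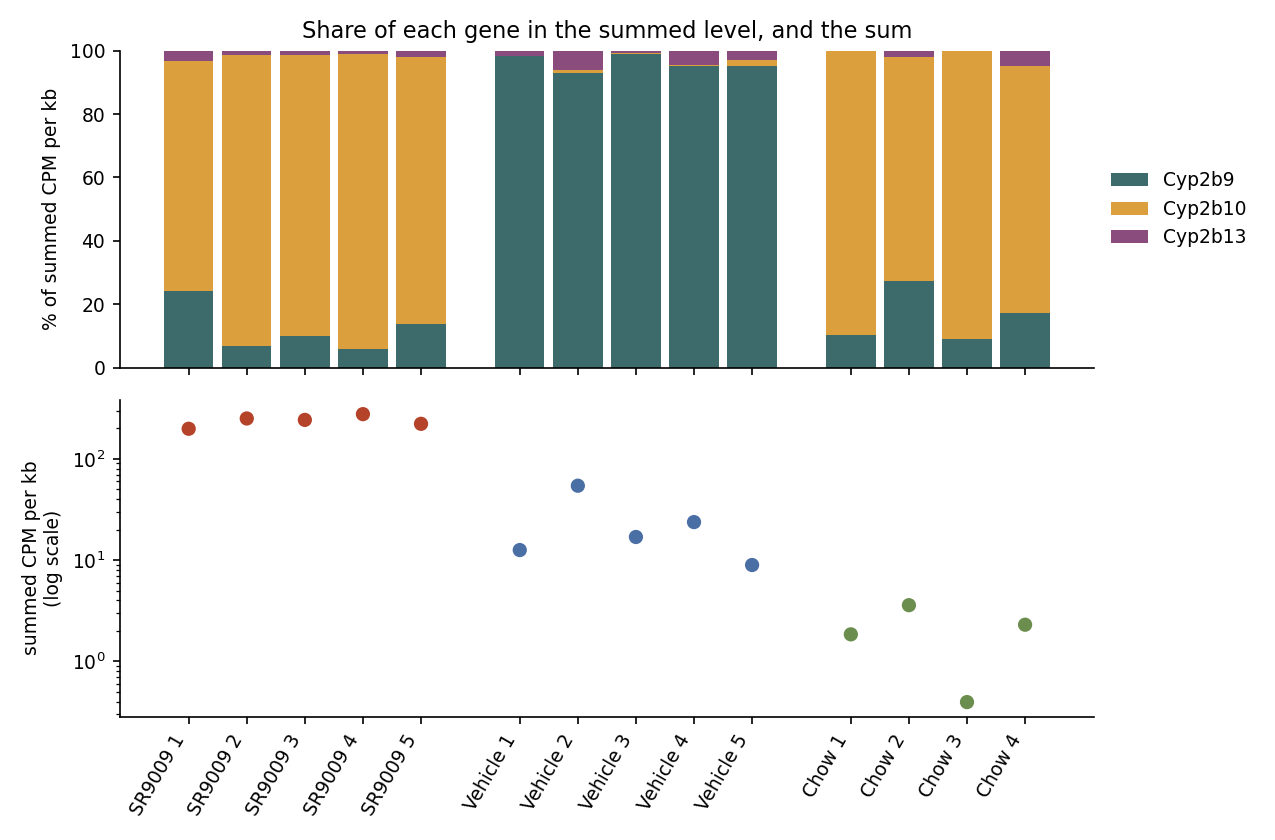
Share of each gene in the summed CPM per kb of the 3 genes, in percent, stacked for every library (upper panel), and the sum itself on a log axis (lower panel), with SR9009 at the left, then Vehicle, then Chow. Cyp2b10 fills 72.5% to 93.1% of the SR9009 columns and at most 2.15% of the Vehicle columns, which are filled by Cyp2b9.

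Within groups the genes varied in different ways. Among SR9009 libraries, replicate 1 had the highest Cyp2b9 and Cyp2b13 and the lowest Cyp2b10, and the order of replicates for Cyp2b9 (1, 5, 3, 2, 4, high to low) was the reverse of that for Cyp2b10. Among Vehicle libraries, replicate 2 was highest for all 3 genes, and its Cyp2b9 and Cyp2b13 lay near or within the SR9009 range while its Cyp2b10 did not. Over the 14 libraries, deviations from group means of log2 CPM correlated at 0.751 between Cyp2b9 and Cyp2b13, 0.649 between Cyp2b10 and Cyp2b13 and 0.572 between Cyp2b9 and Cyp2b10. Among the SR9009 libraries alone, Cyp2b9 and Cyp2b10 ran in opposite orders. Without removing group means the same correlations were 0.87, 0.641 and 0.277. They are descriptions over libraries that share group and depth. With group means removed, those of Cyp2b10 rest mostly on Vehicle and Chow, where its counts were few. Its log2 CPM ran from −4.33 to 0.32 in Vehicle, against 8.25 to 9.09 in SR9009.

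**Figure D4:**
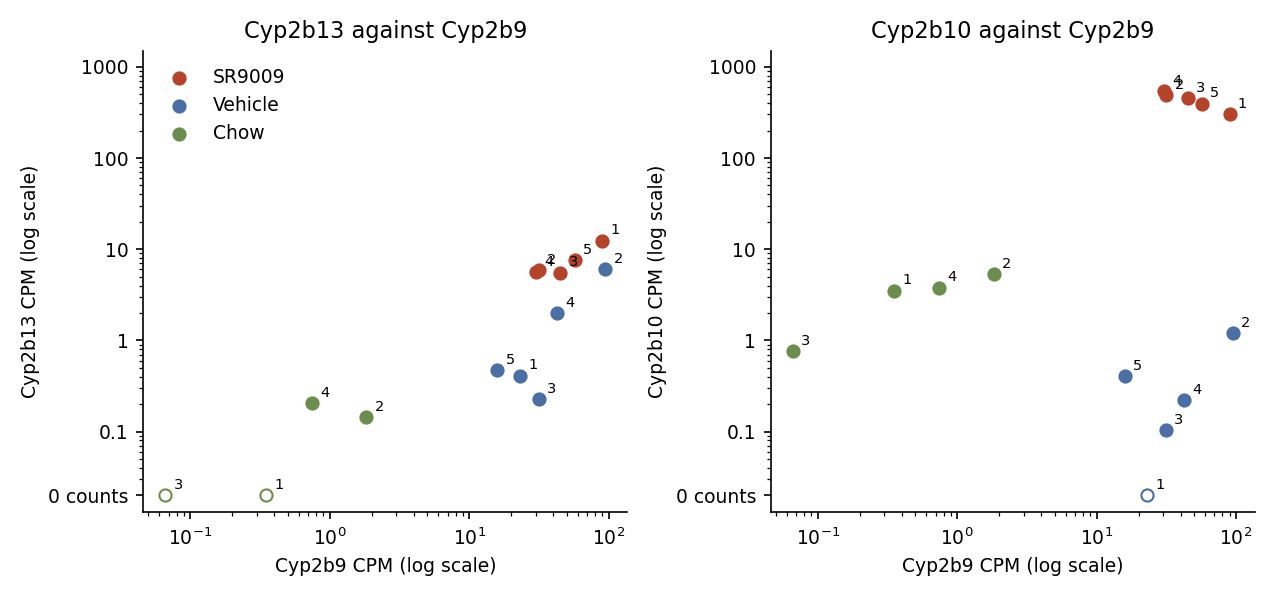
CPM of Cyp2b13 (left) and Cyp2b10 (right) against CPM of Cyp2b9, all on log axes, each point a library with its replicate number, open points marking 0 counts. Cyp2b13 tends to be higher where Cyp2b9 is higher, but at similar Cyp2b9 it is higher in SR9009 than in Vehicle. SR9009 replicate 4 has 30.2 CPM of Cyp2b9 and 5.65 of Cyp2b13, against 31.4 and 0.228 in Vehicle replicate 3. Cyp2b10 separates SR9009, at 303.5 CPM or more, from Vehicle libraries with similar Cyp2b9.

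The neighbours on chromosome 7 did not move as a block. In gene order the cluster runs Cyp2s1, Cyp2b10, Cyp2b13, Cyp2b9, Cyp2a4, Cyp2b23, Cyp2b19, Cyp2g1, Cyp2a5, Cyp2a22, Cyp2a12, Cyp2f2 and Cyp2t4, pseudogenes left out. Besides the 3 genes, 8 of 10 listed neighbours were tested. In SR9009 versus Vehicle 1 was called higher and 0 lower by edgeR (4 higher and 0 lower at unadjusted p under 0.05), with a median log2 fold change of 0.34 against 0.00 over all genes. DESeq2, and edgeR without Vehicle replicate 5, called 2 higher. With edgeR on all libraries, Cyp2g1 (1.94 ± 0.45), Cyp2s1 (1.05 ± 0.45) and Cyp2a12 (0.34 ± 0.13) were higher before adjustment alone. Their unadjusted edgeR p-values were 0.000578, 0.0356 and 0.0213, and their adjusted p-values 0.127, 0.627 and 0.531. The gene called was Cyp2a5, coumarin 7-hydroxylase, with 799.7 to 1350 CPM in SR9009, 273.7 to 526.6 in Vehicle and 303.7 to 462.6 in Chow. All its SR9009 libraries lay above both other groups, by 1.44 ± 0.20 over Vehicle (adjusted p = 0.00508; 1.42 with adjusted p = 0.0881 among libraries with few receptor genes alone), and Vehicle differed from Chow by 0.01 ± 0.21 (adjusted p = 0.963). Over all tested genes edgeR called 0.165% higher and 0.077% lower in SR9009 versus Vehicle, and 29.8% and 25.4% in Vehicle versus Chow. In Vehicle versus Chow 3 of the 8 were called higher and 3 lower (median 0.05), against 1 higher with limma-voom. Cyp2a4, a testosterone 15α-hydroxylase next to Cyp2b9, was higher by 8.13 ± 1.82 (adjusted p = 0.00217), with 0.0993 to 0.140 CPM in Chow, and Cyp2a22 by 2.27 ± 0.49 (adjusted p = 0.00142). The size of the Cyp2a4 rise depended on Vehicle replicate 2, while the call did not. Without that library it was 5.56 and still called (adjusted p = 1.77e-05). It missed the threshold with limma-voom (5.84, adjusted p = 0.0939). Reads of Cyp2a4 and Cyp2a5, which are nearly identical, may be split in an uncertain way. Vehicle replicate 2 stood out again for Cyp2a4, at 147.6 CPM against at most 7.95 in the other Vehicle libraries, as did SR9009 replicate 1, at 40.5 CPM against at most 13.8. Cyp2f2, a lung and liver naphthalene-oxidising enzyme, fell to 147.0 to 385.6 CPM in SR9009 and 174.3 to 330.3 in Vehicle, against 1122 to 1434 in Chow. It differed by 0.08 ± 0.25 between SR9009 and Vehicle (adjusted p = 0.988). Cyp2s1, beside Cyp2b10, was higher in Vehicle than in Chow by 1.77 ± 0.55 (adjusted p = 0.0128; 1.82 with adjusted p = 0.0552 by limma-voom), and Cyp2a12 (−1.11 ± 0.14, adjusted p = 6.48e-06) and Cyp2g1 (−1.53 ± 0.48, adjusted p = 0.0132) were lower. Cyp2g1 lost its call when libraries were scaled by raw totals (−1.05) and among libraries with few receptor genes (−1.04). Cyp2t4 stayed near 0.27 CPM on average in every group (0.266 in SR9009, 0.291 in Vehicle and 0.272 in Chow).

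**Figure D5:**
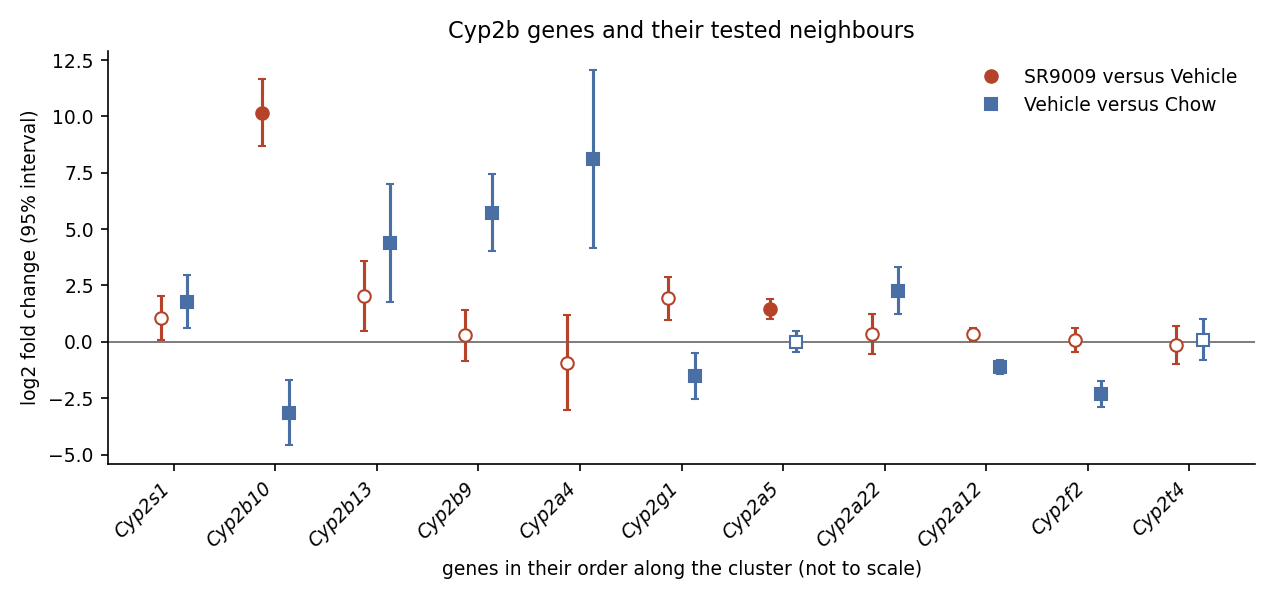
Log2 fold changes, with 95% intervals, of the tested genes of the cluster in their order on chromosome 7, for SR9009 versus Vehicle (circles) and Vehicle versus Chow (squares), filled where the adjusted p is under 0.05. Cyp2b10 at 10.17 and Cyp2a5 at 1.44 pass the threshold in SR9009 versus Vehicle, and neither of the genes beside Cyp2b10 does.

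Other textbook CAR and PXR target genes were measured beside Cyp2b10. Of 30 tested, 12 were called higher and 0 lower in SR9009 versus Vehicle by edgeR (25 higher and 0 lower at unadjusted p under 0.05), with a median log2 fold change of 0.65 against 0.00 over all genes. Within the classes of few and many receptor genes, 4 and 10 were called higher. Their summed level was 22990 to 27450 CPM in SR9009, 8782 to 12130 in Vehicle and 15390 to 19550 in Chow, with no overlap. In Vehicle versus Chow 7 were called higher and 18 lower (median −0.50, against 0.02 over all genes), and in SR9009 versus Chow 13 higher and 4 lower (median 0.20). The 4 became 8 with limma-voom and 10 among libraries with many receptor genes. Under scaling by raw totals, 11 rather than 18 were called lower in Vehicle versus Chow. Among all tested genes, edgeR called 0.165% higher and 0.077% lower in SR9009 versus Vehicle. The shares were 29.8% and 25.4% in Vehicle versus Chow, and 30.5% and 25.7% in SR9009 versus Chow. Cyp2c29, an arachidonic acid-oxidising P450, had 3990 to 5454 CPM in SR9009, 59.8 to 116.5 in Vehicle and 1206 to 1977 in Chow. Like Cyp2b10 it was lowest in Vehicle and above Chow in SR9009, with changes of 5.90 ± 0.22 for SR9009 over Vehicle (adjusted p = 2.03e-10) and −4.27 ± 0.20 for Vehicle over Chow. Cyp2c55, another member of the Cyp2c family, had 63.9 to 91.7 CPM in SR9009, 2.90 to 5.55 in Vehicle and 10.7 to 15.9 in Chow (4.13 ± 0.19 for SR9009 over Vehicle, adjusted p = 5.65e-09). The carboxylesterase gene Ces2a was also lowest in Vehicle, but stayed below Chow in SR9009, with 134.5 to 212 CPM in SR9009, 18.6 to 51.4 in Vehicle and 486 to 658.3 in Chow. Cyp3a11, the main PXR target P450 of mouse liver, differed by 1.23 ± 0.13 between SR9009 and Vehicle (adjusted p = 0.000145), a far smaller change than that of Cyp2b10. Gadd45b, which responds to both CAR activators and stress, differed by −0.13 ± 0.15 (adjusted p = 0.941). Unlike Cyp2b10, Gadd45b was higher in Vehicle than in Chow (3.21 ± 0.20, edgeR adjusted p = 5.04e-09). Akr1b7 (4.39 ± 0.86), Gsta1 (3.34 ± 0.34) and Abcc4 (2.13 ± 0.30) were also among the 7 called higher there, against 18 lower.

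The genes of the receptors and their partners were listed as well. Nr1i3 had 18.8, 11.7, 16.6, 13.4 and 13.7 CPM in SR9009 replicates 1 to 5. It had 12.9, 4.99, 10.9, 18.5 and 12.7 CPM in Vehicle replicates 1 to 5, and 17.7, 25.4, 10.3 and 15.3 CPM in Chow replicates 1 to 4. The groups overlapped throughout. Vehicle replicate 2, with the highest Cyp2b10 of its group, had the lowest Nr1i3 of all libraries. The log2 differences were 0.31 ± 0.29 for SR9009 over Vehicle (interval −0.31 to 0.92, adjusted p = 0.916) and −0.52 ± 0.30 for Vehicle over Chow (adjusted p = 0.168). Nr1i2, which encodes PXR, differed by 0.00 ± 0.08 between SR9009 and Vehicle, and Rxra by 0.03 ± 0.09. In all, 0 of the 17 receptor and partner genes passed in SR9009 versus Vehicle with edgeR, 0 at unadjusted p under 0.05 and 0 with DESeq2 or limma-voom. That comparison called 0.242% of all tested genes, so 0 of 17 lies near that share. In Vehicle versus Chow, 29.8% of all tested genes were called higher and 25.4% lower. Of the 17, 0 were called higher there and 8 lower, among them Nr1i2 (−0.64 ± 0.08) and Rxra (−0.51 ± 0.10). The balance turned over under scaling by raw totals, with 8 called higher and 1 lower, and Nr1i2 at −0.17 and Rxra at −0.03. Receptor activity and protein were not measured.

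Genes that supply P450 enzymes with electrons and haem were also examined. Of 14, 2 were called higher and 0 lower in SR9009 versus Vehicle (4 higher and 0 lower at unadjusted p under 0.05). Over all tested genes, 0.165% were called higher and 0.077% lower in that comparison. Por, the reductase that feeds electrons to CYP2B enzymes, had 228.5 to 264.6 CPM in SR9009, 126.8 to 182.0 in Vehicle and 178.1 to 249.0 in Chow. Every SR9009 library lay above every Vehicle library, by 0.67 ± 0.11 (adjusted p = 0.0145). The call was lost without SR9009 replicate 4 (adjusted p = 0.0531) or SR9009 replicate 5 (adjusted p = 0.0508). Cyb5a, the cytochrome b5 of the endoplasmic reticulum, differed by 0.59 ± 0.11 (adjusted p = 0.0373), and missed the threshold in 9 of 14 fits without a library. In Vehicle versus Chow 1 was called higher, the haem oxygenase gene Hmox1 at 2.03 ± 0.14, and 12 lower. Those lower numbered 3 under raw totals and 7 among libraries with few receptor genes. Over all tested genes, 29.8% were called higher and 25.4% lower. Of 17 targets of the receptors AHR and PPAR-alpha and of NRF2, 1 was called higher and 0 lower in SR9009 versus Vehicle (4 higher and 2 lower at unadjusted p under 0.05, median −0.02). This was the AHR target Cyp1a2, at 1.45 ± 0.27 (adjusted p = 0.0373), which lost its call in 12 of the 14 fits leaving out a library. In Vehicle versus Chow, where 55.2% of all tested genes were called, 7 of these were called higher and 2 lower. The NRF2 targets Slc7a11 (7.60 ± 0.56) and Nqo1 (1.73 ± 0.16) were among the higher. Under raw totals 11 of the 17 were called higher and 0 lower. The lower count was 5 without Vehicle replicate 2 and 1 without Chow replicate 1 or 2.

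Sex-biased liver genes other than Cyp2b9 and Cyp2b13 were measured in the same libraries. The counts below stand against a background in which Vehicle differed from Chow upwards in 29.8% and downwards in 25.4% of tested genes. The median log2 fold change over all genes was 0.02 there. Between SR9009 and Vehicle the share called in either direction was 0.242%. Of 17 listed female-biased genes 10 were tested, and in Vehicle versus Chow 7 were called higher and 2 lower (median 2.32). Those lower numbered 1 without Chow replicate 3, and those higher 4 among libraries with few receptor genes. Sult1e1, the oestrogen sulfotransferase, was higher by 3.71 ± 0.63 (adjusted p = 0.000222), and Prom1 by 3.02 ± 0.52, whereas the female-biased Cyp2c69 went the other way at −3.96 ± 0.80. All 10 are those that passed the filter, which is easier for a gene that is high in some group. Their summed level was 78.7 to 116.2 CPM in SR9009 and 10.9 to 35.1 in Chow. In Vehicle it was 54.9 to 78.8 CPM in 4 libraries and 242.7 in replicate 2, the library with the highest Cyp2b9 and Cyp2b13 of the group. Of 18 male-biased genes, 17 were called lower and 0 higher in Vehicle versus Chow (median −3.25), against 16 lower under raw totals. The fatty acid elongase gene Elovl3 was at −4.65 ± 0.46 and the oxysterol hydroxylase gene Cyp7b1 at −3.61 ± 0.36. The male-biased sum was 3496 to 7617 CPM in SR9009 and 24400 to 40000 in Chow, and in Vehicle 4533 to 8285 CPM except 1761 in replicate 2. In SR9009 versus Vehicle edgeR called 0 female-biased genes (2 higher and 1 lower at unadjusted p under 0.05; 0 with DESeq2, 2 higher with limma-voom), and 1 without Vehicle replicate 2 or Chow replicate 3. It called 0 male-biased genes (1 higher and 3 lower at unadjusted p under 0.05; 0 with DESeq2 and with limma-voom), and 1, lower, without Vehicle replicate 2. Of 12 growth hormone and STAT5 signalling genes, 3 were called higher and 6 lower in the Vehicle livers relative to Chow, including the receptor Ghr (−1.57 ± 0.17), Igfals (−1.73 ± 0.19), Igf1 (−0.98 ± 0.14) and Stat5b (−0.52 ± 0.07, or −0.04 and no call under raw totals). The count higher was 1 without Vehicle replicate 1, Vehicle replicate 3 or Chow replicate 3, and 0 among libraries with few receptor genes. The 3 of 12 called higher lie near the upward share of all tested genes. In SR9009 versus Vehicle 0 were called by edgeR (0 higher and 2 lower at unadjusted p under 0.05; 2 lower with DESeq2, 0 with limma-voom). Whether these differences share an origin with the rise of Cyp2b9 and Cyp2b13 over Chow was not tested.

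The genes most like each member over the 14 libraries were listed by the Pearson correlation of log2 CPM, as a description dominated by the group differences. For Cyp2b9 these were Slc22a27 (0.994), Mcm2 (0.979), Fgd1 (0.976), Usp43 (0.971) and Slc16a5 (0.969). Slc22a27, an organic anion transporter gene of the Slc22 family, had 8.00 to 14.4 CPM in SR9009, 6.06 to 18.9 in Vehicle and 0.166 to 1.09 in Chow, and like Cyp2b9 was highest in Vehicle replicate 2. It also came closest to Cyp2b9 when group means were removed (0.967), before Nfe2l2 (0.934), Acot4 (0.914), Mogat1 (0.893) and Cyp2a22 (0.878). For Cyp2b10 the nearest were Cyp2c55 (0.986), Cyp2a5 (0.911), Cyp2c29 (0.896), Cyp3a11 (0.89) and Ephx1 (0.883), all 5 of them genes of the CAR and PXR target list. With group means removed the nearest to Cyp2b10 were Ybx1-ps2 (0.833), Gsta1 (0.827), E2f1 (0.819), Rpa2 (0.813) and Mpp1 (0.81). Gsta1 is also on the CAR and PXR target list. Ybx1-ps2, a pseudogene, averaged 0.271 CPM in SR9009, 0.254 in Vehicle and 0.487 in Chow. These 5 values rest mostly on the low Cyp2b10 levels of Vehicle and Chow. For Cyp2b13 the nearest were Akr1b7, Lrtm2 and Abcc4 (0.933 each), the female-biased Cyp3a44 (0.925) and Dcbld2 (0.907). With group means removed they were Mcm4 (0.878), Notch4 and Grip1 (0.856 each), Esr1 (0.855) and Fsbp (0.846). Of the 5 found with group means kept, Akr1b7 and Abcc4 belong to the CAR and PXR list.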

How the data were processed

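Total liver RNA was sequenced (NovaSeq X Plus, per the labels). The authors deposited unnormalized counts for Ensembl genes, a column per library. Per the submitters' processing notes, STAR 2.7.11b and the GRCm39 build were used. The sources used here do not give the counting tool, annotation, strand setting or read length, so overlapping and near-identical genes are uncertain. The 14 libraries analysed leave out 1 of the 15 samples described, Chow replicate 5, which is not analysed here. The labels present samples of a group as separate, without naming the animals; p-values measure the spread between these samples.

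Counts were tested with edgeR 4.0.16 in R 4.3.3 (filterByExpr with minimum count 10 and minimum total 15, TMM scaling with factors of 0.753 to 0.824 in Chow and 1.02 to 1.15 in the others, robust quasi-likelihood, 1 spread over the 3 groups). The filter left 18181 genes with 99.9% of counts, and Benjamini-Hochberg adjustment ran over them at 0.05. Standard errors were set so as to return the quasi-likelihood F. The common biological coefficient of variation was 0.211. "Higher" and "lower" calls rest on this test unless another tool is named. Symbols came from a reference table and matched 90.8% of identifiers, holding 99.6% of counts. Ratios between genes used log2 CPM with a prior count of 2 and exact permutation tests (scipy 1.17.1). Lengths and transcripts are from GENCODE M21. Alternatives were DESeq2 1.42.0, limma-voom 3.58.1 with quality weights, other scalings, filters and prior counts, only the groups compared, a replicate block and leaving out each library. The split by receptor genes was chosen after seeing the data; its boundary of 113 came from the diet-fed libraries, and Chow replicate 1, at 105, lay near it. Counting floors cover counting error only. None of the 26 within-group pairs was a repeat of a library (mean chi-square per gene at least 15.3). The pipeline was tested on simulated data.

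The 3 genes, the gene lists and the motifs were chosen with earlier results of these data known. Named besides the 3 were the cluster neighbours, up to 4 genes per list with the smallest adjusted p, Nr1i3, Nr1i2 and Rxra, and the 5 genes most like each member on 2 measures, leaving out predicted genes.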

Additional observations from a re-analysis of the deposited data

Results flagged for a closer look

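Among groups of 4 or 5 libraries, the gap of the highest or lowest library to its neighbour was set against the range of the group (Dixon's 95% critical value) for 204 combinations of a gene or list sum with a group. It was exceeded in 24, and in none for Cyp2b9, Cyp2b10 or Cyp2b13 themselves. No chance rate can be set against this count, since the combinations are not independent. Some genes, such as Acot4 and Nfe2l2, were also named because they varied like a Cyp2b gene over these same libraries.

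Vehicle replicate 2, the Vehicle library with the highest level of all 3 Cyp2b genes, accounted for most of the gaps in its group. It was highest for Cyp2a4 (147.6 CPM, next 7.95), Prom1 (26.4, next 10.8), Cyp2c69 (0.447, next 0.124), Cyp3a44 (0.612, next 0.186), Akr1b7 (0.518, next 0.192), Abcc4 (24.4, next 12.5) and Acot4 (47.5, next 26.4), and for the sum of female-biased genes (242.7, next 78.8). It was lowest for the sum of pericentral hepatocyte markers (5027, next 9804).

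SR9009 replicate 1, the SR9009 library with the highest Cyp2b9 and Cyp2b13, was highest for Cyp2a4 (40.5 CPM, next 13.8), Cyp2a22 (36.9, next 20.4), Nfe2l2 (139, next 109.7) and Ncoa1 (27.9, next 22.0). SR9009 replicate 3 was highest for Cyp7b1 (54.4, next 34.3).

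Chow replicate 3 was highest for Cyp7b1 (739 CPM, next 403), Cyp1a2 (794, next 621) and Sult1e1 (1.62, next 0.289) and lowest for Stat5b (89.1, next 105) and Cyp2t4 (0.232, next 0.281). Chow replicate 4 was highest for Por (249, next 190), and it held the only counts of its group for Slc7a11 (0.0825) and Akr1b7 (0.0412), as Chow replicate 2 did for Cyp3a44 (0.0573). Vehicle replicate 3 was lowest for the sum of T and B cell markers (8.36, next 11.2).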

How the results depend on the processing

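Directions of the 3 genes held under every alternative except for Cyp2b9 in SR9009 versus Vehicle, which was −0.02 without SR9009 replicate 1 and −0.33 among libraries with many receptor genes. Cyp2b13 in Vehicle versus Chow missed the threshold with limma-voom (3.44, adjusted p = 0.0510) and among libraries with few receptor genes (3.83). In SR9009 versus Vehicle it passed with limma-voom (3.43, adjusted p = 0.0134) and without Vehicle replicate 2 (3.24); the cause was not tested. Genes called in SR9009 versus Vehicle numbered 44, against 212 with DESeq2, 66 with limma-voom, 9 and 24 within the classes of few and many receptor genes, and 18 to 56 leaving out a library. CAR and PXR targets called higher numbered 12, against 20 with DESeq2 and 4 and 10 within the classes of few and many receptor genes. Electron transfer and haem genes called higher numbered 2, against 3 with DESeq2, and 0 without SR9009 replicate 4 or 5 and within either class. With a prior count of 0.5 the log2 ratio of Cyp2b13 to Cyp2b9 differed by −2.02 in Vehicle versus Chow (exact permutation, adjusted p = 0.0952) and by 0.50 in SR9009 versus Chow, the other sign. With a prior count of 5, Cyp2b10 to Cyp2b13 in SR9009 versus Chow was 1.99 (exact permutation, adjusted p = 0.0408).

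Leaving out each library gave 5.17 to 6.82 for Cyp2b9, −4.16 to −2.80 for Cyp2b10 and 3.16 to 5.04 for Cyp2b13 in Vehicle versus Chow. In SR9009 versus Vehicle it gave −0.02 to 0.85, 9.86 to 11.18 and 1.74 to 3.24, and in SR9009 versus Chow 5.64 to 7.11, 6.69 to 7.36 and 5.99 to 7.06. Ratio differences in Vehicle versus Chow ran from −9.96 to −9.03 for Cyp2b10 to Cyp2b9, −3.20 to −2.44 for Cyp2b13 to Cyp2b9 and −7.04 to −6.14 for Cyp2b10 to Cyp2b13, and missed the threshold without any 1 Chow library, since fewer samples allow no smaller p.

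Scaling by raw totals moved the median of all genes by 0.50 in Vehicle versus Chow, with 10389 genes higher and 1378 lower (88.3% higher) against 5414 and 4621 (54.0% higher), and in SR9009 versus Chow 9964 and 1577 (86.3%) against 5548 and 4665 (54.3%). It turned Ncoa2 (0.04), Ephx1 (0.13), Por (0.15) and Cyb5a (0.04) upwards in Vehicle versus Chow. Nr1i3 in SR9009 versus Chow was 0.23 under raw totals, −0.39 to 0.05 leaving out a library and 0.05 among libraries with few receptor genes.

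Replicate numbers did not pair the samples: over 13 pairs the deviations correlated at −0.362 to 0.196, and 1 of 14 libraries correlated best with its own number. With the replicate block, Cyp2b9, Cyp2b10 and Cyp2b13 were at 0.55, 10.37 and 2.92 in SR9009 versus Vehicle, where 15 genes and 0 of the electron transfer genes were called, and no call of the 3 changed. Depth limits the low groups most, since Cyp2b10 in Vehicle and Cyp2b13 in Chow rest on few counts.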
